A study of Homo sapiens with 12 samples.

Results

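The genes described here are those of YAP, TAZ and the TEAD factors, with 5 genes that are textbook targets of these factors. They were taken by symbol from the raw count table, which gave 10 genes of the 60649 genes listed, each with 1 row. YAP1 and WWTR1 encode the coactivators YAP and TAZ, and TEAD1, TEAD3 and TEAD4 encode DNA-binding factors of the TEAD family. CCN1, CCN2, ANKRD1, AMOTL2 and LATS2 are the targets. The table held 12 RNA sequencing libraries from SK-UT-1B, with 4, and SK-LMS-1, with 8, established human cell lines labelled as uterine leiomyosarcoma and as wild type (WT). Cells were exposed for 72 h to DMSO, to MK-0752, or to MK-0752 with gemcitabine and docetaxel (the combination), each at the IC30, a dose of partial loss of viability calculated by the study. MK-0752 inhibits gamma secretase, which releases the active fragment of Notch receptors, gemcitabine stops DNA synthesis as a false nucleoside, and docetaxel freezes microtubules. SK-UT-1B had 2 libraries after DMSO (replicates 1 and 2) and 2 after the combination (replicates 1 and 3). SK-LMS-1 had DMSO set 2 (replicates 1 and 3) and DMSO set 4 (replicates 1 and 2), named by the first number of the library, with MK-0752 alone (replicates 2 and 3) carrying the number of set 2 and the combination (replicates 1 and 2) that of set 4. In SK-UT-1B, the first number of the libraries was 4 after DMSO and 3 after the combination, and whether these numbers mark a batch was not stated in the sources used here. By the study's methods, the combination held less MK-0752 than was used alone. The labels do not say whether replicates were separate cultures, so p-values measure the spread between these libraries, which may be technical, and each line stands for a single tumor.

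YAP and TAZ enter the nucleus and bind TEAD factors, which carry them to enhancers and promoters of genes for matrix, cytoskeleton and growth. The Hippo kinases, among them LATS2, phosphorylate YAP and TAZ and hold them in the cytoplasm, while cell spreading and a stiff actin skeleton let them through. In smooth muscle and its tumors this axis is best known for tying tension and matrix to transcription. Because control acts largely on the YAP and TAZ proteins, RNA of YAP1 and WWTR1 and RNA of their targets are separate readouts.

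Library totals lay between 25250057 and 40709885 counts. A check of the labelled cell type gave summed levels of 10 smooth muscle markers of 85.9 to 124 CPM (counts scaled to the size of each library) in SK-UT-1B and 541 to 623 CPM in SK-LMS-1. Of these 10 markers, 7 or 8 were detected in each SK-UT-1B group and 7 to 9 in each SK-LMS-1 group, by more than 3 counts in at least 1 library. Among those at or near 0, MYOCD, the smooth muscle coactivator, was at 0 in every DMSO library. DES (desmin) was at 0 in every SK-LMS-1 library, and MYH11 (smooth muscle myosin) had at most 5 counts in any library. Summed epithelial markers were at 0.637 to 3.58 CPM in SK-UT-1B and at 178 to 277 CPM in SK-LMS-1, most of it KRT8 and KRT18, and summed blood and endothelial markers reached at most 10.2 CPM. Among genes expected at 10 to 50 counts from the other libraries of the line, 30.8% to 40.9% had 0 counts in an SK-UT-1B library and 18.2% to 47.8% in an SK-LMS-1 library, while among genes expected at 100 to 1000 counts this share was at most 0.294%. These data are from bulk RNA, in which fewer cells of a type and less RNA per cell cannot be told apart.

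The promoters of CCN2 and ANKRD1 are shown first because CCN2 was the member that was differentially expressed after a treatment and both hold repeated copies of the letters GGAATG, the core that TEAD factors recognize. Promoters were matched by symbol for 7 of the 10 genes in RefSeq sequences of GRCh38.p14, all but TEAD1, TEAD4 and CCN1, and for WWTR1 and AMOTL2 the matched start lay inside the gene as GENCODE draws it. The 250 bases before the start site were searched on both strands for GGAATG (TEAD), TGANTCA (AP-1) and the CArG box (SRF), which do not overlap in these windows. The sequences below run 5′ to 3′ on the gene's own strand, CCN2 from chr6:131951373-131951622 (minus strand) and ANKRD1 from chr10:90921088-90921337 (minus strand), and capitals mark GGAATG.
CCN2: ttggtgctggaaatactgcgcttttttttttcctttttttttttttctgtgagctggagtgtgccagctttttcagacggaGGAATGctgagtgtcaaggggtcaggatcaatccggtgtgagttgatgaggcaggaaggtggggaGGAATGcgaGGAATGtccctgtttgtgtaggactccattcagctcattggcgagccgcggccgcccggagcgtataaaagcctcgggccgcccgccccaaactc
ANKRD1: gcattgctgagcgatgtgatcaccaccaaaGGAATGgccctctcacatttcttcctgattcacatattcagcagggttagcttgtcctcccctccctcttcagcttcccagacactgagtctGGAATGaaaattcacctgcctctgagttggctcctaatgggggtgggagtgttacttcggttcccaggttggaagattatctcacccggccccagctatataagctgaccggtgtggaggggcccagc

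CCN2 held 3 matches, which began 169, 104 and 95 bases before the start, and ANKRD1 held 2, which began 220 and 128 bases before it. YAP1 held 1 match, 162 bases before its start. Over all 35116 promoters, 11.9% held at least 1 match, 0.940% at least 2 and 0.0826% at least 3. WWTR1, TEAD3, AMOTL2 and LATS2 held none of these letters in this window. ANKRD1 also held 1 AP-1 match, beginning 195 bases before its start, against 6.57% of all promoters with AP-1 letters. The CArG box, in 1.16% of all promoters, was in none of the 7. Of 17 other YAP/TAZ targets taken as a list, 12 had a promoter in the table and 4 of these held GGAATG. A match of letters describes the sequence, and binding was not measured.

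Within SK-LMS-1 after DMSO, the targets CCN1 and CCN2, secreted matrix proteins, stood among the highest of the 10 genes, and within SK-UT-1B they stood among the lowest. Levels were compared between genes as CPM per kb of exon, and errors are SDs over 4 libraries in SK-LMS-1 and 2 in SK-UT-1B. The order in SK-LMS-1 after DMSO ran from CCN1 (181 ± 14.1 CPM per kb) and WWTR1 (143 ± 13.9) through CCN2 (70.8 ± 6.78), YAP1 (57.5 ± 2.35), TEAD1 (39.5 ± 4.42) and AMOTL2 (22.5 ± 1.35) to TEAD3 (12.2 ± 2.62), TEAD4 (9.07 ± 1.28), LATS2 (6.38 ± 1.11) and ANKRD1 (3.38 ± 1.44). The libraries of neighbours in this order overlapped for TEAD3 with TEAD4 and for LATS2 with ANKRD1, and not for the others. In SK-UT-1B, the order ran from YAP1 (22.4 ± 0.19 CPM per kb) and WWTR1 (15.4 ± 1.59) through TEAD4 (9.97 ± 4.02), TEAD3 (8.83 ± 2.55), TEAD1 (4.57 ± 0.54), LATS2 (4.38 ± 0.27) and CCN2 (3.77 ± 0.47) to AMOTL2 (0.398 ± 0.374), CCN1 (0.0646 ± 0.0913) and ANKRD1 (0.0445 ± 0.0629). Here TEAD4 overlapped with TEAD3, TEAD1 with LATS2, and CCN1 with ANKRD1.

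**Figure D1:**
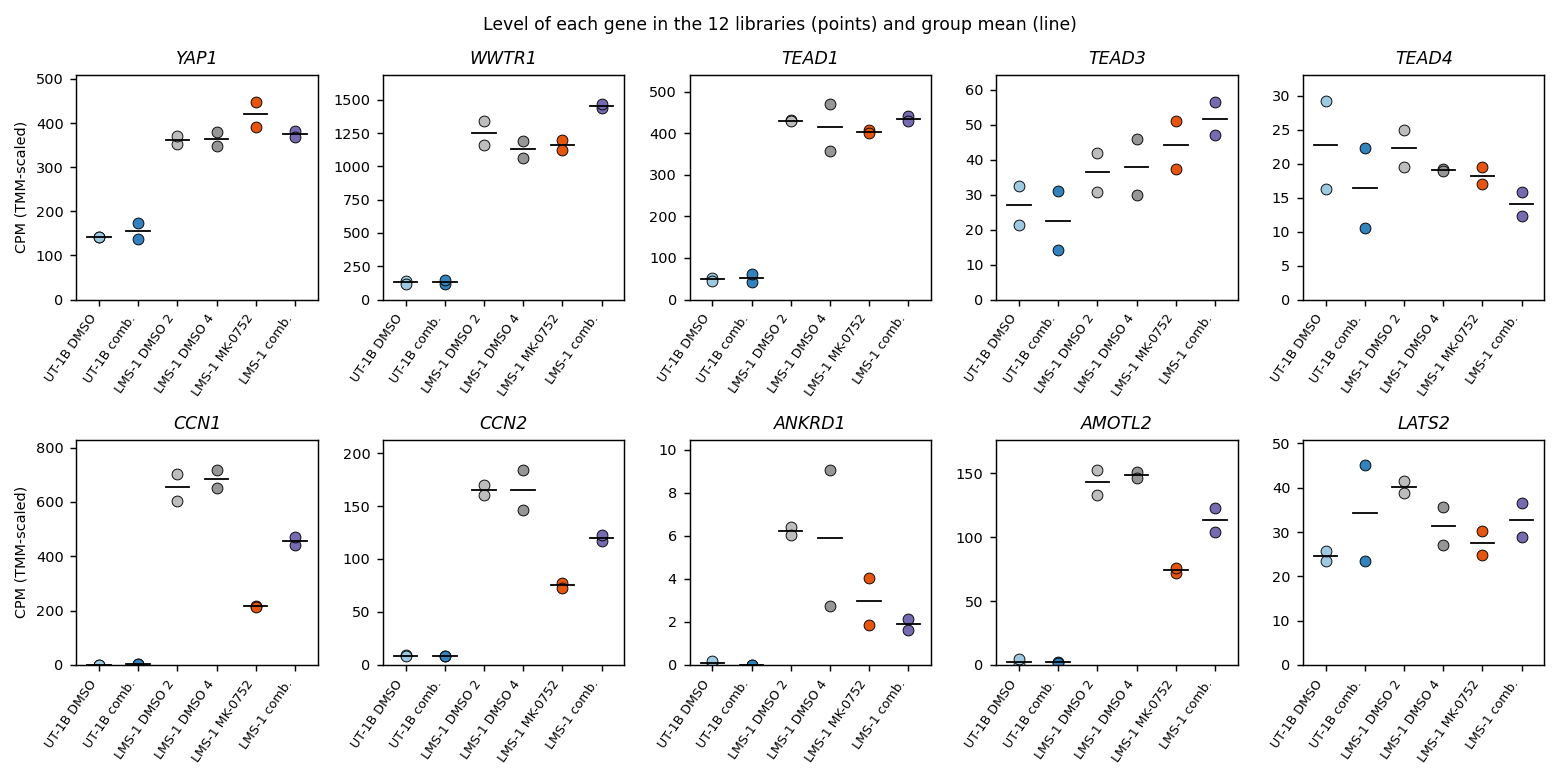
CPM (vertical axes, linear, from 0, a separate scale for each gene) of the 10 genes in each of the 12 libraries, with points for libraries and a line for the mean of each group of 2. CCN1 lies between 213 and 717 CPM in SK-LMS-1 and at most at 2.46 CPM in SK-UT-1B, and within SK-LMS-1 the 2 MK-0752 libraries are the lowest for CCN1, CCN2 and AMOTL2.

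The first comparison asked how the lines differ in this axis after DMSO alone. Of the 10 genes, 7 were differentially expressed, all higher in SK-LMS-1, where over all 21114 genes tested 17.0% were higher and 14.1% lower. A gene counts as differentially expressed where log2FC is 1 or more in size and the adjusted p (edgeR quasi-likelihood, Benjamini-Hochberg over all genes tested) is under 0.05, and all adjusted p-values below are of this kind unless named otherwise. The median log2FC of the 10 genes was 3.16, against 0 over all genes tested, and 9 of 10 were positive. By role, the median was 1.36 for the 5 coactivators and TEADs and 5.78 for the 5 targets.

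YAP1 was at 142 and 141 CPM in SK-UT-1B and at 353, 371, 348 and 379 CPM in SK-LMS-1. The lines did not overlap, and the log2FC was 1.36 (SE 0.14, adjusted p = 9.64e-08). WWTR1, the gene of TAZ, was at 138 and 119 CPM in SK-UT-1B and at 1344, 1162, 1065 and 1193 CPM in SK-LMS-1. Every SK-LMS-1 library was far above both of SK-UT-1B, with a log2FC of 3.21 (SE 0.15, adjusted p = 5.40e-13), a 9.24-fold difference against 2.56-fold for YAP1. The make-up of the coactivators differed accordingly. Per kb of exon, the ratio of WWTR1 to YAP1 was between 0.511 and 0.795 in the 4 SK-UT-1B libraries and between 2.02 and 3.01 in the 8 SK-LMS-1 libraries, so per kb YAP1 RNA was the more abundant in SK-UT-1B and WWTR1 RNA in SK-LMS-1. The order in SK-UT-1B rests on the scaling by exon length, since in CPM the combination replicate 3 library had 144 for WWTR1 and 137 for YAP1. Exons of both genes overlap antisense genes, WWTR1 with WWTR1-AS1, and while the library kit marks strand, the strand setting of the counts was not given in the sources used here, so reads of such a partner could be included.

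**Figure D2:**
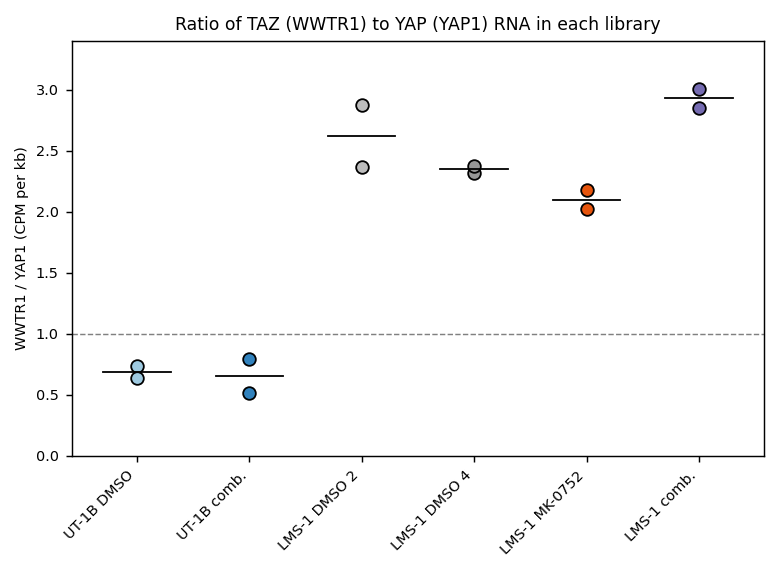
Ratio of WWTR1 to YAP1 in CPM per kb of exon (vertical axis, linear, from 0) in each library (points), with group means (lines) and a dashed line at 1. All 4 SK-UT-1B libraries lie below 1, at 0.511 to 0.795, and all 8 SK-LMS-1 libraries above 2, at 2.02 to 3.01.

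The TEAD family differed in its make-up, while the ranges of its sum per kb of exon overlapped. TEAD1 was at 52.9 and 44.8 CPM in SK-UT-1B and at 433, 429, 358 and 471 CPM in SK-LMS-1, which did not overlap (log2FC 3.11, SE 0.18, adjusted p = 1.89e-11). TEAD3 was at 32.4 and 21.4 CPM in SK-UT-1B and at 30.9, 42.1, 45.9 and 29.9 CPM in SK-LMS-1, and TEAD4 at 29.1 and 16.2 CPM in SK-UT-1B and at 25.0, 19.5, 19.2 and 18.9 CPM in SK-LMS-1. TEAD3 (log2FC 0.46, SE 0.31, 95% interval -0.19 to 1.12, adjusted p = 0.242) and TEAD4 (log2FC -0.14, SE 0.32, 95% interval -0.81 to 0.54, adjusted p = 0.801) were not differentially expressed, and their libraries overlapped between the lines. TEAD2, which is on the list of TEAD cofactors and not among the 10 genes, was at 192 and 164 CPM in SK-UT-1B and at 28.6, 36.9, 36.4 and 31.4 CPM in SK-LMS-1, and was lower in SK-LMS-1 (log2FC -2.42, SE 0.17, adjusted p = 4.74e-10). Of the sum of TEAD1 to TEAD4 per kb, TEAD2 made up 66.1% to 82.1% in the SK-UT-1B libraries and 13.5% to 19.3% in those of SK-LMS-1. TEAD1 made up 5.34% to 7.57% in SK-UT-1B and 48.1% to 60.6% in SK-LMS-1. The sum itself was 73.4 to 92.7 CPM per kb in SK-UT-1B and 69.1 to 78.4 CPM per kb in SK-LMS-1, ranges that overlapped. This overlap rests on the scaling by exon length, since in CPM the sum was higher in every SK-LMS-1 library than in any of SK-UT-1B.

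**Figure D3:**
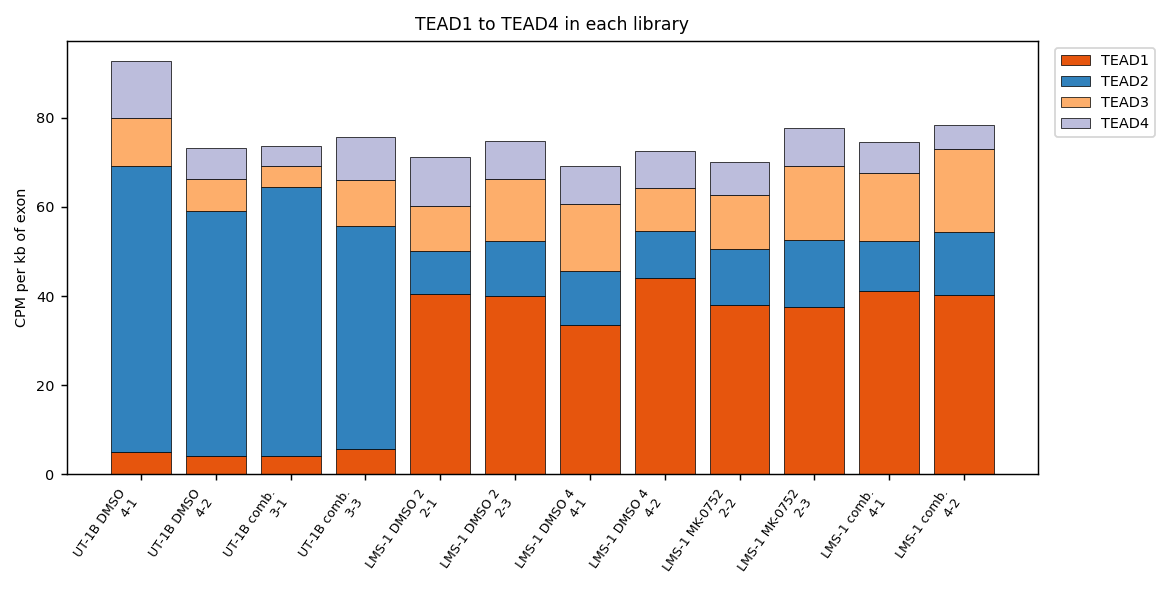
CPM per kb of exon of TEAD1, TEAD2, TEAD3 and TEAD4, stacked, in each of the 12 libraries (bars, linear axis from 0). TEAD2 makes up 66.1% to 82.1% of the stack in the 4 SK-UT-1B libraries and TEAD1 48.1% to 60.6% in the 8 SK-LMS-1 libraries, at sums between 69.1 and 92.7 CPM per kb.

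The gap between the lines was wider for 4 of the 5 targets, CCN1, CCN2, ANKRD1 and AMOTL2, than for any coactivator or TEAD. CCN2, also known as connective tissue growth factor, was at 9.59 and 8.04 CPM in SK-UT-1B and at 170, 161, 184 and 147 CPM in SK-LMS-1. The lines did not overlap (log2FC 4.23, SE 0.20, adjusted p = 7.78e-13), an 18.8-fold difference. CCN1, also known as CYR61, had 0 and 18 counts in SK-UT-1B (0 and 0.477 CPM) and was at 604, 704, 717 and 651 CPM in SK-LMS-1. Its log2FC was 11.28 (SE 0.55, adjusted p = 1.72e-07). It was 10.38 without SK-UT-1B DMSO replicate 1 with the same genes tested, and without SK-UT-1B DMSO replicate 2 its group in SK-UT-1B was at 0 counts. AMOTL2, an angiomotin that binds YAP at the membrane and is itself a target, was at 0.865 and 4.30 CPM in SK-UT-1B and at 153, 133, 151 and 146 CPM in SK-LMS-1. All SK-LMS-1 libraries were higher (log2FC 5.78, SE 0.56, adjusted p = 4.10e-05), and leaving out SK-UT-1B DMSO replicates gave log2FC from 5.03 to 7.39. AMOTL2 shares exon bases on its strand with the pseudogene RPL39P5, and CCN2 overlaps LINC01013 on the other strand, so their values could hold reads of these genes. ANKRD1, a cardiac ankyrin repeat protein made under stretch, had 0 and 6 counts in SK-UT-1B and was at 6.42, 6.01, 9.05 and 2.75 CPM in SK-LMS-1, low in both lines (log2FC 6.12, SE 1.41, adjusted p = 0.00159). Its log2FC was 5.16 without SK-UT-1B DMSO replicate 1 with the same genes tested, and without replicate 2 its group in SK-UT-1B was at 0 counts. LATS2, the kinase that closes the feedback loop, was at 23.5 and 25.7 CPM in SK-UT-1B and at 41.5, 38.8, 27.1 and 35.7 CPM in SK-LMS-1. Every SK-LMS-1 library was higher, but the difference did not pass the test (log2FC 0.53, SE 0.26, 95% interval -0.01 to 1.07, adjusted p = 0.111).

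After the combination, 8 of the 10 genes were higher in SK-LMS-1, where 15.6% of all genes tested were, with a median log2FC of 3.27 against 0.02 over all genes. These were the 7 genes above and TEAD3 (log2FC 1.20, SE 0.35, adjusted p = 0.0143), at 14.0 and 31.2 CPM in SK-UT-1B and at 47.0 and 56.4 CPM in SK-LMS-1. TEAD3 passed both thresholds in 11 of 15 alternative settings and was lost with only the libraries of the comparison (adjusted p = 0.0702), without SK-UT-1B combination replicate 1, its lowest library (log2FC 0.71, adjusted p = 0.0869), and, with the genes of the full test kept, without SK-LMS-1 combination replicate 2 (adjusted p = 0.0930). CCN1 was 208-fold higher (log2FC 7.70, SE 0.46, adjusted p = 9.91e-07) and CCN2 14.4-fold higher (log2FC 3.85, SE 0.20, adjusted p = 6.53e-12). ANKRD1 had 0 counts in both SK-UT-1B combination libraries, and against a floor of 3 counts per library the SK-LMS-1 level was at least 19.9-fold higher. YAP1 (log2FC 1.28), WWTR1 (3.48), TEAD1 (3.06) and AMOTL2 (5.84) were the other genes that were again higher. LATS2 (log2FC -0.07) and TEAD4 (-0.22) were not differentially expressed.

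**Figure D4:**
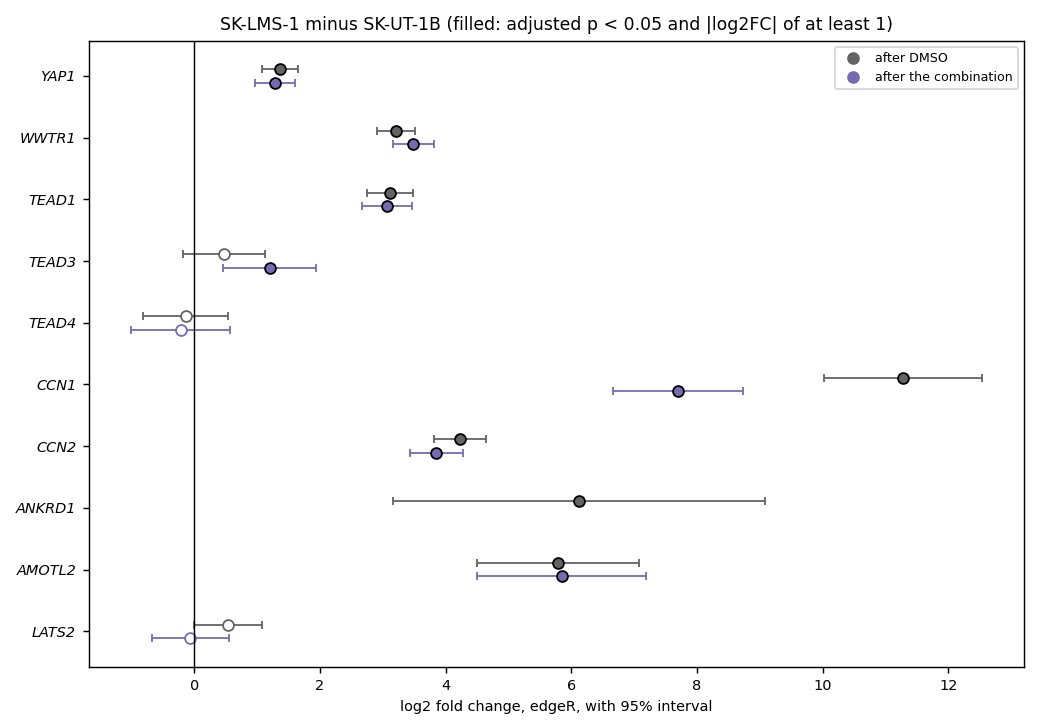
log2FC of SK-LMS-1 minus SK-UT-1B (horizontal axis) with 95% intervals for the 10 genes after DMSO and after the combination. Filled points passed both thresholds, 7 genes after DMSO and 8 after the combination, of which ANKRD1 after the combination is not drawn because SK-UT-1B had 0 counts.

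Genes around this axis were taken from 4 lists, to be read against the 17.0% of all genes tested that were higher and the 14.1% that were lower between the lines after DMSO. Of 17 other YAP/TAZ targets, 13 had higher RNA and 1 had lower RNA in SK-LMS-1 than in the other line after DMSO, with a median log2FC of 3.60. The 4 with the highest level were NT5E (log2FC 8.65), the ecto-nucleotidase CD73, AXL (6.15), a receptor tyrosine kinase, MYOF (6.33), a membrane repair protein, and CRIM1 (6.62). AXL, for example, was at 26.9 and 21.2 CPM in SK-UT-1B and at 1753, 1704, 1661 and 1697 CPM in SK-LMS-1. FOXF2, a forkhead factor, was the gene that was lower (log2FC -3.13, SE 0.94, adjusted p = 0.0109). Of 14 actin and focal adhesion genes tied to SRF, 9 were higher and 0 lower, with a median log2FC of 1.78. The 4 with the highest level were FLNA (log2FC 2.13), TPM4 (1.23), ZYX (1.96) and CALD1 (2.94), which encode filamin A, a tropomyosin, zyxin and caldesmon. Some of these genes are also smooth muscle markers.

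The kinases and scaffolds that act on YAP and TAZ went both ways, as did all genes tested. Of 33 tested, 9 had higher and 3 had lower RNA in SK-LMS-1 after DMSO, with a median log2FC of 0.44. Over all genes tested, 17.0% were higher and 14.1% lower, and no test set this list apart from them. STK4 (log2FC 1.24), the upstream kinase MST1, MINK1 (1.32), a related MAP4K, and PTPN14 (1.00), a phosphatase that binds YAP, were higher. The value for PTPN14 lay at the threshold of 1, and its log2FC lay between 0.92 and 1.05 in 17 alternative settings, 6 of which kept the call. FRMD6, a FERM scaffold of the pathway, was lower in SK-LMS-1, at 758 and 798 CPM in SK-UT-1B and 345, 325, 217 and 289 CPM in SK-LMS-1 (log2FC -1.42, SE 0.12, adjusted p = 1.27e-08). Of 9 TEAD cofactors and competitors tested, TEAD2 was lower and VGLL3 was higher. VGLL3, a vestigial-like protein that competes with YAP and TAZ for TEAD, had 0 counts in both SK-UT-1B DMSO libraries and was at 110, 106, 62.2 and 84.2 CPM in SK-LMS-1, at least 988-fold higher against the floor of 3 counts per library. SRF, MRTFA and MRTFB, on the same list, were not differentially expressed.

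The second comparison asked what MK-0752 alone did in SK-LMS-1, against DMSO set 2. Of the 10 genes, 1 was differentially expressed, CCN2, where 0.251% of all genes tested were, and 0.194% of all genes tested were lower. By role, all 5 targets had a negative log2FC, with a median of -1.08, while the 5 coactivators and TEADs lay between -0.29 and 0.28, with a median of -0.09. The median over all genes tested was 0.

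CCN2 was at 170 and 161 CPM after DMSO and at 77.6 and 72.3 CPM after MK-0752. Both treated libraries were below both controls and below the 184 and 147 CPM of DMSO set 4. CCN2 fell 2.21-fold (log2FC -1.14, SE 0.18, 95% interval -1.52 to -0.76, adjusted p = 0.00488), and it passed both thresholds in the 10 alternatives planned, with adjusted p between 3.40e-06 and 0.0251. Those that leave out a library tested more genes, 24433 to 24671, because the filter loosens when a group holds 1 library. In a further setting, chosen after seeing the data, each library was left out with the 21114 genes of the full test kept, and the call was then lost in 3 of 4 cases, with adjusted p = 0.109 without SK-LMS-1 DMSO set 2 replicate 1, 0.0638 without MK-0752 replicate 2 and 0.145 without MK-0752 replicate 3. The log2FC stayed between -1.20 and -1.09 over the 17 settings run.

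CCN1 was at 604 and 704 CPM after DMSO and at 218 and 213 CPM after MK-0752. The groups were further apart than those of CCN2 in fold, 3.03-fold (log2FC -1.60, SE 0.34, 95% interval -2.37 to -0.83), but the adjusted p of the fit over all 12 libraries was 0.160. CCN1 passed both thresholds in 11 of 17 alternatives, among them DESeq2 (adjusted p = 9.82e-23), no filter on low counts (adjusted p = 1.21e-04), all 4 SK-LMS-1 DMSO libraries as 1 group (adjusted p = 0.0317) and the 4 libraries of the comparison alone (adjusted p = 2.48e-05). SK-UT-1B entered the fit over all libraries with 0 and 18 counts of CCN1 after DMSO, libraries that are not in the comparison. In settings chosen after seeing the data, with the same genes tested, CCN1 had an adjusted p of 2.25e-05 without SK-UT-1B DMSO replicate 1 and 1.49e-05 without SK-UT-1B DMSO replicate 2, and with only the 8 SK-LMS-1 libraries it was 4.32e-12. With the same genes tested and 1 of the compared libraries left out, it was between 0.366 and 0.845. AMOTL2 was at 153 and 133 CPM after DMSO and at 72.2 and 75.8 CPM after MK-0752, which did not overlap (log2FC -0.95, SE 0.46, adjusted p = 0.806). It passed both thresholds in 1 of 17 alternatives, without SK-LMS-1 DMSO set 2 replicate 3 (log2FC -1.06, adjusted p = 0.0153), and in that setting with the same genes tested the adjusted p was 0.774. Its adjusted p was under 0.05 in 4 further settings, at a log2FC short of the threshold in each: 0.00694 with only the libraries compared (log2FC -0.94), 0.0246 and 0.0218 without SK-UT-1B DMSO replicate 1 or 2 (log2FC -0.94 and -0.95), and 1.14e-04 with only the 8 SK-LMS-1 libraries (log2FC -0.92). LATS2 was at 41.5 and 38.8 CPM after DMSO and at 30.2 and 24.9 CPM after MK-0752 (log2FC -0.54, SE 0.29, adjusted p = 0.806). ANKRD1, at 6.42 and 6.01 CPM after DMSO and 4.04 and 1.85 CPM after MK-0752, had a log2FC of -1.08 (SE 1.14, adjusted p = 0.963), whose interval of -3.48 to 1.32 spans 0. This value, which is also the median of the 5 targets, moved to -1.75 without MK-0752 replicate 2 and -0.62 without MK-0752 replicate 3.

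The genes of the coactivators were not differentially expressed. YAP1 was at 353 and 371 CPM after DMSO and at 448 and 391 CPM after MK-0752 (log2FC 0.21, 95% interval -0.10 to 0.52). WWTR1 was at 1344 and 1162 CPM after DMSO and at 1199 and 1126 CPM after MK-0752 (log2FC -0.11, 95% interval -0.40 to 0.19). The libraries of WWTR1 overlapped between the groups, and those of YAP1 did not. The ratio of WWTR1 to YAP1 per kb was 2.02 and 2.17 after MK-0752 and 2.87 and 2.37 in DMSO set 2, a difference without a test here.

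Around these genes, 15 of 17 other YAP/TAZ targets had a negative log2FC after MK-0752, with a median of -0.32 against 0 over all genes tested, and 0 were differentially expressed. The signs within a list come from the same libraries, so they are not separate observations, and the share of negative signs over all genes was not counted. Of the 14 actin and SRF genes 12 were negative (median -0.15), and of the 33 Hippo kinases and scaffolds 22 were (median -0.13), again with 0 differentially expressed on both lists. Of the 9 cofactors tested, 0 were differentially expressed (median 0.02). By edgeR, 1354 of all genes tested had an unadjusted p under 0.05. Summed epithelial markers were also lower after MK-0752, at 178 and 189 CPM against 226 and 270 CPM in DMSO set 2, with KRT18 at 64.3 and 72.3 against 103 and 144 CPM. The list did not fall as a whole. Of its 7 genes tested, 4 had a negative and 2 a positive log2FC (median -0.03), and 0 were differentially expressed. The part of the lower sum in the result was not tested.

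**Figure D5:**
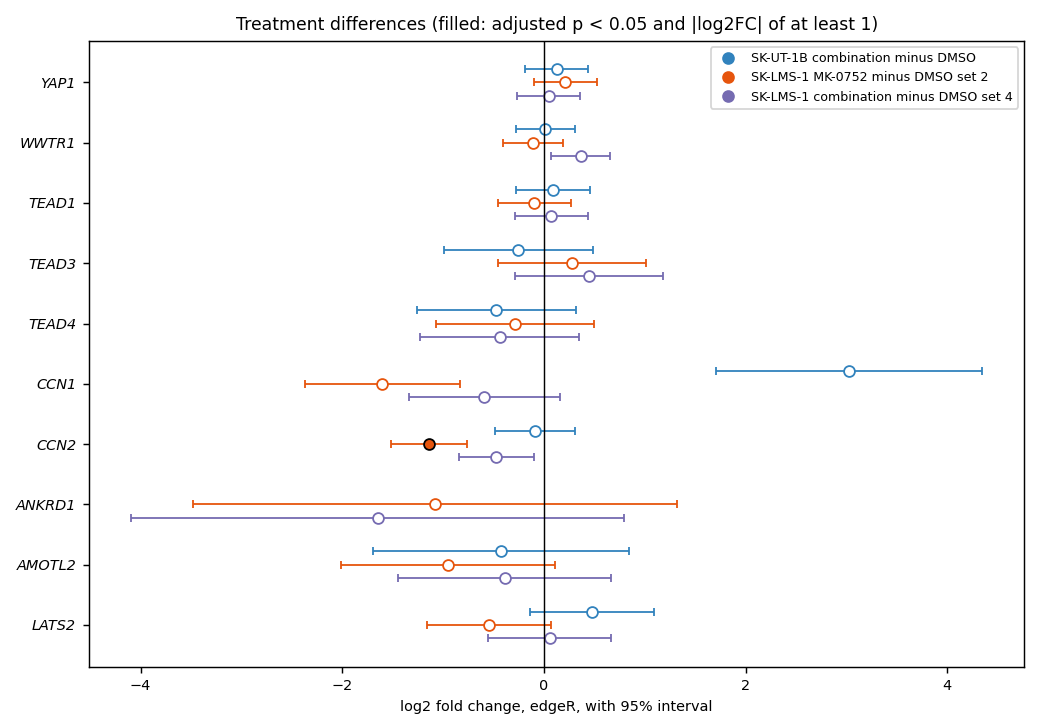
log2FC (horizontal axis) with 95% intervals of the 10 genes for the combination in SK-UT-1B, MK-0752 in SK-LMS-1 and the combination in SK-LMS-1, each minus its DMSO libraries. The filled point, CCN2 after MK-0752 at -1.14, passed both thresholds, and ANKRD1 in SK-UT-1B is not drawn because its combination libraries had 0 counts.

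The third comparison asked what the combination did in SK-LMS-1, against DMSO set 4. None of the 10 genes was differentially expressed, where 0.0237% of all genes tested were. By edgeR, 2 of the 10 had an unadjusted p under 0.05, WWTR1 and CCN2, as did 914 of all 21114 genes tested. DESeq2 called 0 of the 10, and over all genes 31 higher and 5 lower. CCN2 was at 184 and 147 CPM after DMSO and at 117 and 122 CPM after the combination, which did not overlap (log2FC -0.47, SE 0.18, 95% interval -0.84 to -0.10, adjusted p = 0.907). CCN1 was at 717 and 651 CPM after DMSO and at 441 and 469 CPM after the combination, also without overlap (log2FC -0.59, SE 0.33, 95% interval -1.34 to 0.16, adjusted p = 0.907). AMOTL2 was at 151 and 146 CPM after DMSO and at 123 and 104 CPM after the combination (log2FC -0.39, SE 0.46). These 3 targets were lower in both treated libraries than in all 4 DMSO libraries of the line, by less than the thresholds asked. ANKRD1, given below, was also lower in this way, at low levels. How many of all genes tested were split in this way was not counted, so the split does not set these targets apart. WWTR1 was at 1065 and 1193 CPM after DMSO and at 1441 and 1469 CPM after the combination, the highest of the 8 SK-LMS-1 libraries (log2FC 0.37, SE 0.14, 95% interval 0.07 to 0.66, adjusted p = 0.907). ANKRD1 was at 9.05 and 2.75 CPM after DMSO and at 1.62 and 2.13 CPM after the combination, with 1 control library close to the treated ones (log2FC -1.65, SE 1.16, 95% interval -4.09 to 0.79). Leaving out a library moved this value, to -0.55 without DMSO set 4 replicate 1 and -2.25 without DMSO set 4 replicate 2. The remaining genes lay between -0.44 and 0.45. Of the other YAP/TAZ targets 10 of 17 were positive, with a median of 0.06, and 0 were differentially expressed.

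The fourth comparison asked how SK-UT-1B differed after the combination. Its combination libraries carry the first number 3 and its DMSO libraries 4, so treatment and this number cannot be told apart. None of the 10 genes was differentially expressed, where 0.559% of all genes tested were. By edgeR, 2 of the 10 had an unadjusted p under 0.05, CCN1 and ANKRD1, as did 2214 of all 21114 genes tested. DESeq2 called 1 of the 10, CCN1, and over all genes 236 higher and 140 lower. CCN1 had 0 and 18 counts after DMSO and 90 and 53 counts after the combination, or 0 and 0.477 CPM against 2.46 and 1.88 CPM. Both treated libraries were above both controls, at levels far under those of SK-LMS-1 (log2FC 3.02, SE 0.58, 95% interval 1.70 to 4.34, adjusted p = 0.0701). It passed both thresholds by DESeq2 (adjusted p = 3.03e-11), without a filter on low counts, where genes needed a mean of 50 counts, and when any 1 of the 4 libraries was left out with 24346 to 24628 genes tested. With the same genes tested it passed without DMSO replicate 1 (log2FC 2.15, adjusted p = 8.87e-04), without DMSO replicate 2 (adjusted p = 2.44e-06, where the control left had 0 counts and no fold is given) and without combination replicate 3 (adjusted p = 0.0339), and not without combination replicate 1 (adjusted p = 0.301). It also did not pass with only the libraries of the comparison (log2FC 3.15, adjusted p = 0.743) or with DESeq2 size factors in edgeR (adjusted p = 0.0652). These counts lie in or near the range in which many genes had 0 counts in a library of this line, and the part of this in the result was not tested. ANKRD1 had 0 and 6 counts after DMSO and 0 in both libraries after the combination, near the floor, so no fold is given.

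CCN2 was at 9.59 and 8.04 CPM after DMSO and at 7.98 and 8.59 CPM after the combination, and the groups overlapped (log2FC -0.09, SE 0.19, 95% interval -0.48 to 0.31). AMOTL2 had 25 and 162 counts after DMSO and 80 and 49 after the combination (log2FC -0.42, SE 0.55), and 1 library decided its value, with -1.14 (adjusted p = 0.00993) without DMSO replicate 1 and 1.19 (adjusted p = 0.0589) without DMSO replicate 2. LATS2 was at 23.5 and 25.7 CPM after DMSO and at 45.1 and 23.4 CPM after the combination, so that only combination replicate 1 stood above the controls (log2FC 0.48, SE 0.29). The coactivators and TEADs lay between -0.47 and 0.13. Of the 17 other targets, 12 were positive (median 0.13, against 0 over all genes tested) and 1 was differentially expressed, CCDC80, a secreted matrix protein, at 12.2 and 19.3 CPM after DMSO and 60.0 and 29.2 CPM after the combination (log2FC 1.50, SE 0.29, adjusted p = 0.0384). Its log2FC was 0.85 without combination replicate 1, under the threshold, its adjusted p was 0.175 without DMSO replicate 1 with the same genes tested, and its adjusted p was 0.592 with only the libraries of the comparison. On the lists of kinases and scaffolds, cofactors, and actin genes, 0 were differentially expressed.

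The differences between these effects were tested directly. Between the combination effects of the lines, 0 of the 10 genes were differentially expressed, where 0.232% of all genes tested were. In SK-UT-1B this effect cannot be told apart from the first number of the libraries. By edgeR, 1 of the 10 had an unadjusted p under 0.05, CCN1, as did 1619 of all 21114 genes tested. DESeq2 called 1 of the 10, also CCN1, and over all genes 83 higher and 65 lower. CCN1 had a difference in log2FC of 3.61 (SE 0.67, 95% interval 2.08 to 5.14, adjusted p = 0.123), which passed both thresholds in 14 of 23 alternatives. The value was 2.74 without SK-UT-1B DMSO replicate 1, and without replicate 2 the SK-UT-1B control was at 0 counts. CCN2 had one of 0.38 (SE 0.26, 95% interval -0.16 to 0.93). Between the effects of MK-0752 and of the combination in SK-LMS-1, 0 of the 10 were differentially expressed, where 0.0379% of all genes tested were. By edgeR, 2 of the 10 had an unadjusted p under 0.05, as did 1094 of all 21114 genes tested. DESeq2 called 0 of the 10, and over all genes 11 higher and 29 lower. CCN2 had a difference of -0.67 (SE 0.25, 95% interval -1.20 to -0.14, adjusted p = 0.911), CCN1 one of -1.01 (SE 0.47, 95% interval -2.08 to 0.05, adjusted p = 0.911) and WWTR1 one of -0.47 (SE 0.20, 95% interval -0.89 to -0.06, adjusted p = 0.911). For CCN1 the adjusted p was 0.00348 by DESeq2 (-0.98) and 0.00131 with only the SK-LMS-1 libraries (-0.95), both short of the fold threshold, and both thresholds were passed in 2 of 26 alternatives, without DMSO set 2 replicate 1 (-1.13, adjusted p = 0.0421) and without DMSO set 4 replicate 1 (-1.09, adjusted p = 0.0263). With the same genes tested, neither of these passed. The difference of CCN2 after MK-0752 alone was not shown to differ from that after the combination, at doses of MK-0752 that differed. Between DMSO sets 4 and 2, the log2FC of the 10 genes lay between -0.35 and 0.07.

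Among the genes most like CCN2 across the 12 libraries, after the mean of each line was subtracted from log2(CPM + 1), were FST (Pearson r 0.97), RGS4 (0.96), EPHB6 (0.95) and INHBA (0.95), taken from 9865 genes with a mean of at least 10 CPM. FST encodes follistatin, RGS4 a regulator of G protein signaling, EPHB6 an ephrin receptor, and INHBA an inhibin subunit. CCN1 ranked 316 (r 0.71) and AMOTL2 648 (r 0.61) in likeness to CCN2, and YAP1 had an r of -0.65. The genes most like YAP1 were GCC2 (r 0.94), YY1 (0.93) and CHD9 (0.93). These correlations are descriptions over libraries that share their group, depth and scaling, and the MK-0752 libraries carry much of the spread of CCN2.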

How the data were processed

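Total RNA of 12 libraries was sequenced after ribosomal RNA depletion with a stranded library kit. According to the study's methods and the submitters' processing notes, reads were trimmed (Trim Galore 0.3.7), aligned to hg38 and counted per gene by STAR 2.7.9a. The authors deposited these values as raw counts per gene, without normalization, for 60649 genes, and the annotation and strand setting of the counting were not given in the sources used here. Columns were matched to libraries by name, and groups were taken from the labels.

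Counts were tested in R 4.3.3 with edgeR 4.0.16 (TMM scaling, filterByExpr, robust quasi-likelihood fit) over 6 groups of 2 libraries and 21114 genes, with Benjamini-Hochberg adjustment. A gene was called differentially expressed where its log2FC was 1 or more in size and its adjusted p under 0.05. The study used DESeq2, which at version 1.42.0 served here as an alternative. SEs were taken from the size of the log2FC and its F value. CPM used TMM effective library sizes, and CPM per kb used the union of the exons of each gene in GENCODE. A fold against a group at 0 was computed against a floor of 3 counts per library, and reads carry no molecular identifiers in this count, so floors cover counting error only. At the TMM effective library sizes, 3 counts came to 0.0777 to 0.123 CPM. Each group held 2 libraries, which left 6 residual degrees of freedom.

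On simulated counts for the SK-UT-1B combination (19172 genes, 200 of them changed 4-fold), edgeR recovered 61% of the changed genes with 2.4% of its calls false, and DESeq2 recovered 68% with 20.9% false. The counts were drawn with edgeR's own estimates of spread, so these rates do not compare the tools on even terms. They do not decide between the tools for a given gene.

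The members and lists were chosen with earlier results of these data known. All 10 genes are described. From 4 lists (Hippo kinases and scaffolds, TEAD cofactors and competitors, other YAP/TAZ targets, actin and focal adhesion genes tied to SRF), each gene differentially expressed in a treatment comparison is named, and between lines after DMSO the 4 differentially expressed genes per list with the highest mean CPM in the higher line. The genes named for likeness are the 5 most correlated with CCN2, of which 1 is not reported here, and the 3 most correlated with YAP1. FOXF2 is named outside this rule, after its value was seen. The list of kinases holds 33 genes of the table, and its symbol MAP4K6 is an older name of MINK1, which it also holds. PTPN14 is on 2 lists. Promoters came from RefSeq (GRCh38.p14).

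Alternatives were DESeq2, DESeq2 size factors in edgeR, no filter beyond 1 count, a mean count of at least 50, only the libraries compared, all 4 SK-LMS-1 DMSO libraries as 1 group, a replicate block, and each library left out. Leaving out each library with the same genes tested, and fitting only the 8 SK-LMS-1 libraries, were chosen after seeing the data.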

Additional observations from a re-analysis of the deposited data

Results flagged for a closer look

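TEAD4, a TEAD factor, had 1 of the 4 SK-LMS-1 DMSO libraries far from the others, with 25.0 CPM in set 2 replicate 1 against 19.5, 19.2 and 18.9 CPM. The gap between this library and the next was 0.906 of the whole range, above Dixon's 95% critical value for 4 samples. The 10 genes were examined in this way, and chance marks about 1 in 20 groups.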

How the results depend on the processing

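The 10 genes were followed under each alternative. The lines differed in 7 genes after DMSO and in 8 after the combination by edgeR and by DESeq2, and after the combination in 7 with only the libraries compared and in 7 to 8 when a library was left out. After the combination in SK-UT-1B, 1 gene was differentially expressed by DESeq2, without a filter and where genes needed a mean of 50 counts, and 0 to 2 when a library was left out. After MK-0752 there were 2 by DESeq2, without a filter, with only the libraries compared, with all 4 DMSO libraries and with only the 8 SK-LMS-1 libraries, and 0 to 3 when a library was left out. The difference between combination effects gave 1 by DESeq2, without a filter and with all 4 DMSO libraries, and 0 to 2 when a library was left out. MK-0752 minus combination gave 0 to 1 when a library was left out. Leaving out a library turned the sign of CCN2 (-0.21 to 0.023), AMOTL2 (-1.16 to 1.19) and LATS2 (-0.10 to 0.88) in the SK-UT-1B combination, WWTR1 after MK-0752 (-0.23 to 0.0020), TEAD4 between lines after DMSO (-0.50 to 0.30), and LATS2 (-0.46 to 0.46) and TEAD4 (-0.69 to 0.42) after the combination. The cause was not tested. Of 971 values under alternatives for 57 results, 893 kept direction and side of the threshold, 22 no longer passed, 40 newly passed and 16 turned sign. Of 39 further differences of the 10 genes, given only by range, 25 changed sign under at least 1 alternative, 1 passed both thresholds under at least 1 (TEAD3 in the difference between combination effects, without SK-UT-1B combination replicate 3), and 38 of the 39 had an interval that includes 0. In SK-UT-1B, DESeq2 called 236 genes higher and 140 lower against 83 and 35 by edgeR, and for MK-0752 45 and 86 against 12 and 41. Without a filter these counts were 259 and 161 in SK-UT-1B, and 62 and 19 with a mean of 50 counts. For MK-0752 they were 64 and 111 without a filter and 23 and 76 with only the libraries compared. All 4 DMSO libraries gave 22 and 52 there, and only the 8 SK-LMS-1 libraries 30 and 100. The difference between combination effects had 31 and 18 by edgeR, 83 and 65 by DESeq2, 159 and 144 without a filter. With a replicate block for the shared numbers of the SK-LMS-1 combination and DMSO set 4 libraries, 0 of the 10 genes were differentially expressed there, in the difference between lines and in the difference from MK-0752, with CCN2 at -0.46. The deviations of same-numbered libraries had an r of -0.01 over 21114 genes. With 2 libraries per group, this cannot show whether same-numbered libraries share a culture or a batch. CCN1, ANKRD1 and AMOTL2 had low counts in SK-UT-1B, and the part of this in their values was not tested.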
